A study of Mus musculus with 5 samples.

Results

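The Hox genes are the 39 protein-coding genes, of 21938 in the GENCODE M21 annotation of mm10, whose symbols are Hoxa, Hoxb, Hoxc or Hoxd followed by a digit. The rule takes only their names. They lie in 4 clusters and were read for Gfi1 and Lsd1 peaks within each gene and 1 kb around it. The peaks came from MG tumors, a mouse model of medulloblastoma in which Prominin1+, lineage-negative neural stem cells from cerebella of C57BL/6 pups aged 5 to 7 days were given retroviruses encoding a stabilized point mutant of Myc and wild-type Gfi1, and were transplanted into immunodeficient NSG mice. Chromatin of 2 such tumors, numbered 39 (replicate 1) and 41 (replicate 2), was immunoprecipitated with a rabbit polyclonal antibody to Gfi1 (GNE-CJS-2) and with a rabbit polyclonal antibody to Lsd1 (Abcam), which gave 4 libraries with a peak list each. Both tumors carry both transgenes, so that no tumor without added Gfi1 stands beside them. The input listed with them is a pool of MGB tumors, made with Myc and Gfi1b in place of Gfi1, and no peak list of it was used here.

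Hox genes encode homeodomain transcription factors that give cells their position along the body axis. Within a cluster the genes are numbered in the order in which they lie, and low numbers are used toward the head and high numbers toward the tail. Silent Hox clusters are kept closed by Polycomb complexes. The cerebellum arises from the front end of the hindbrain, ahead of the region in which Hox genes are used. Gfi1 is a zinc finger repressor that recruits Lsd1, a histone demethylase, through its SNAG domain, and in blood progenitors it is known to repress Hoxa9 and the gene of its partner Meis1.

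The promoters of 3 genes are shown first because they hold the extremes of what was found, namely the gene with a peak in every library, a gene with peaks in all libraries but that of Gfi1 in tumor 41, and a gene with none. Each line gives the 250 bases before the annotated 5′ end, on the plus strand of mm10, read from the RefSeq copy of the genome (GRCm38.p6), with CpG dinucleotides in capitals.
Hoxd9, chr2:74697477-74697726: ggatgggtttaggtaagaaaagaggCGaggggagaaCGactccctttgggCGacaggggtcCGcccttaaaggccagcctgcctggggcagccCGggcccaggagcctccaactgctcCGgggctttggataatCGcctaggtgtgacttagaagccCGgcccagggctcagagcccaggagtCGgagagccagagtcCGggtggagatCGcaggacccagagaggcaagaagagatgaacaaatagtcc
Hoxd1, chr2:74762730-74762979: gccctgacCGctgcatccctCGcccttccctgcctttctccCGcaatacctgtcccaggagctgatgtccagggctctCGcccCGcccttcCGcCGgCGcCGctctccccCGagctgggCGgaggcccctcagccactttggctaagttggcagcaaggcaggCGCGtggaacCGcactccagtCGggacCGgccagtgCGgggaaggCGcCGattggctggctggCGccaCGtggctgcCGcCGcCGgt
Hoxb4, chr11:96318017-96318266: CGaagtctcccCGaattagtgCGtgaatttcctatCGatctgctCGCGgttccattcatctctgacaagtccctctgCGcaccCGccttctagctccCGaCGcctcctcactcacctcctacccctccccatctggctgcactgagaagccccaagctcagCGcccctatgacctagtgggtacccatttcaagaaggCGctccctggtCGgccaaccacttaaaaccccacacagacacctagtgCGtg
All 250 bases before Hoxd9 lay inside a peak in each of the 4 libraries. The bases before Hoxd1 lay wholly inside the Gfi1 peak of tumor 39 and the Lsd1 peaks of both tumors, and those before Hoxb4 lay in no peak. The stretches held 11 CpGs at Hoxd9, 24 at Hoxd1 and 14 at Hoxb4, which among these 3 did not follow the number of libraries with a peak. Within 500 bp on either side of the 5′ end the counts were 70, 94 and 36, with the gene without a peak lowest. From 3 chosen genes no relation can be read.

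The 4 lists held from 25078 to 36836 peaks, with median widths of 1443 to 1765 bp, and carry for each peak a score that is 50 or more. What the score measures is not given with the lists, so it was used only as a percentile within its own list, the percent of that list's peaks with a lower score. A gene without a peak is one with no peak above the authors' limit, and its signal is not known. The longest list was that of Gfi1 in tumor 39, which by the numbers of mapped reads the study states was the shallower of the Gfi1 libraries. The lists hold no read counts. In bulk chromatin, fewer occupied cells and weaker occupancy in every cell cannot be told apart. With 2 tumors per factor no test was run, and the values of both tumors stand side by side.

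Gfi1 peaks lay at nearly all Hox genes in tumor 39 and at almost none in tumor 41. A peak was present at 35 of the 39 Hox genes (89.7%) for Gfi1 in tumor 39, where 68.1% of all protein-coding genes had one. For Gfi1 in tumor 41 it was present at 2 Hox genes (5.13%), against 58.1% of all genes. Lsd1 had a peak at 4 Hox genes (10.3%) in tumor 39 and at 16 (41%) in tumor 41, against 62% and 64.9% of all genes. The Gfi1 list of tumor 39 was thus the only one in which the share of Hox genes was above that of all genes, and in the other 3 it was below. The order of the tumors was opposite for the 2 factors, with more Hox genes in tumor 39 for Gfi1 and in tumor 41 for Lsd1. With every list reduced to its highest 25078 peaks, the length of the shortest, an alternative chosen after seeing the data, Gfi1 had 32 and 2 Hox genes and Lsd1 had 3 and 8 in tumors 39 and 41. What part the depth of a library or its input has in these numbers was not tested.

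Very few Hox genes had peaks that both tumors shared. A Gfi1 peak in both tumors was found at 2 Hox genes, Hoxd9 and Hoxa13, which is 5.13% against a background of 57.6% of all genes. An Lsd1 peak in both tumors was found at 4, Hoxa7, Hoxa9, Hoxd1 and Hoxd9, or 10.3% against 61.1%. Hoxd9 alone had a peak in all 4 libraries (2.56%, against 56.6% of all genes). At the other end, 19 Hox genes (48.7%) had a Gfi1 peak in tumor 39 and in no other library, a pattern that 3.61% of all genes had. Another 4, Hoxb1, Hoxb4, Hoxb13 and Hoxc4, had no peak in any library (10.3%, against 30.2%). None of the 39 had a high-confidence peak, defined as a peak in the upper 20% of the score of tumor 39 with at least 50% of its length in upper 20% peaks of tumor 41. This set was built on the score and need not match one built on enrichment. Of all genes, 24.4% had such a peak for Gfi1 and 27.7% for Lsd1.

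**Figure D1:**
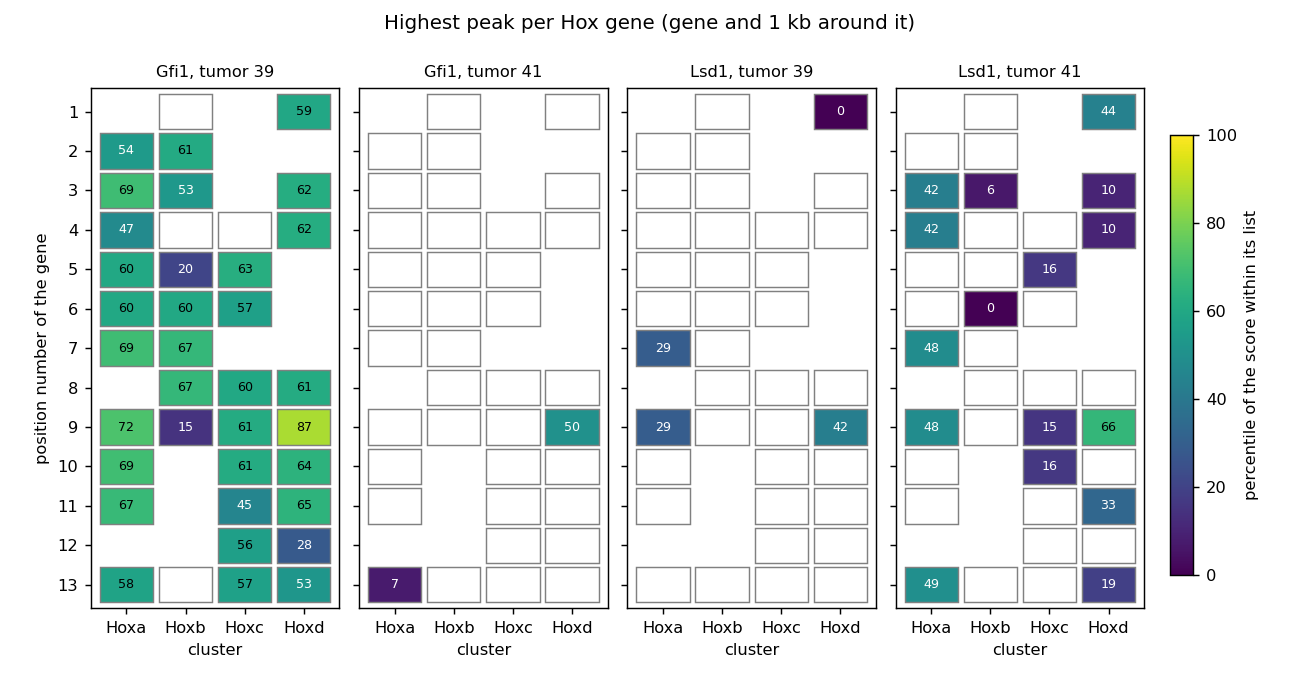
Percentile of the highest peak at each Hox gene, with 1 panel per library, clusters across and the position number of the gene down. Each framed cell is a gene, colour and number give the percentile of the score within that library's list (0 to 100), and empty frames are genes with no peak. Of 39 genes, 38 are drawn, and the first panel is filled nearly throughout, while the others are filled at 2, 4 and 16 genes.

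The highest peaks at Hox genes ranked lower than those at other genes. Over the 35 Hox genes with a Gfi1 peak in tumor 39, the highest peak of each gene stood at a median percentile of 60.9, with a range from 14.7 at Hoxb9 to 87.5 at Hoxd9, and only Hoxd9 was above the 80th percentile. The same median over all 14949 protein-coding genes with a peak in that list was 82.5. In tumor 41 the Hox median for Gfi1 was 28.8, against 77.5 over all genes with a peak. For Lsd1 it was 29.1 in tumor 39 and 25.9 in tumor 41, against 79.3 and 81.2. The mean of the Hox medians over both tumors was 44.8 ± 22.7 (SD, n = 2) for Gfi1 and 27.5 ± 2.30 (SD, n = 2) for Lsd1. Within each tumor the Gfi1 median was the higher, by much in tumor 39 and by little in tumor 41, but the medians are over different genes. In tumor 41 that of Gfi1 is over 2 genes and that of Lsd1 over 16. At those 2, Hoxd9 and Hoxa13, Lsd1 in tumor 41 stood higher than Gfi1, at 66.0 and 49.3 against 50.3 and 7.26.

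Hoxd9, a gene of the limb and the caudal spinal cord, held the highest Hox peak of each library. It lies on the plus strand of chromosome 2 from 74697727 to 74700208. Its Gfi1 peak in tumor 39 ran from 74696152 to 74699467, a width of 3316 bp, with a score of 1513.66 at percentile 87.5. In tumor 41 the Gfi1 peak ran from 74697358 to 74698787 with a score of 169.6 at percentile 50.3. The Lsd1 peaks ran from 74697374 to 74698872 at percentile 42.5 in tumor 39, and from 74697253 to 74699235 at percentile 66.0 in tumor 41. All 4 thus covered the promoter and the 5′ part of the gene. The interval common to them, from 74697374 to 74698787, was 1414 bp long and held 130 CpGs, or 9.19 per 100 bp, with a GC content of 66.8%. The 2 noncoding genes that begin beside Hoxd9, Gm14396 and Gm28793, share these peaks.

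Hoxa13, a gene of the digits and the hindgut, was the other gene with a Gfi1 peak in both tumors, but the peaks did not touch. In tumor 39 the peak ran from 52259269 to 52260411 on chromosome 6, inside the gene, at percentile 57.8. In tumor 41 it ran from 52256741 to 52257538, beyond the 3′ end of the gene, at percentile 7.26. The Lsd1 peak of tumor 41, from 52258875 to 52260428 at percentile 49.3, lay over the former. Hoxd9 was therefore the only place in the 4 clusters where the Gfi1 peaks of both tumors overlapped.

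Lsd1 peaks of both tumors were found at 3 other genes. Hoxa7 and Hoxa9, next to each other in the Hoxa cluster, shared theirs, which ran from 52221101 to 52222297 at percentile 29.1 in tumor 39 and from 52221000 to 52222272 at percentile 48.2 in tumor 41. This site is the 5′ end of the GENCODE gene model of Hoxa7, while the start in RefSeq lies elsewhere in the gene and had no peak in any library in the promoter sequence searched. Hoxa9 counts only because its 3′ end lies within 1 kb. A Gfi1 peak of tumor 39 covered the site at percentile 58.8. The highest Gfi1 peak of tumor 39 at Hoxa9, the Hox gene best known from leukemia, was a separate one at percentile 71.8, with no Lsd1 peak over it. At Hoxd1, the gene whose promoter is printed above, the Gfi1 peak of tumor 39 stood at percentile 59.4 and the Lsd1 peaks at 0.288 in tumor 39 and 43.5 in tumor 41. The lower of these was thus close to the authors' limit.

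A further 11 Hox genes had a Gfi1 peak in tumor 39 and an Lsd1 peak in tumor 41 only. In the Hoxa cluster these were Hoxa3 and Hoxa4, genes of the neck and its pharyngeal arches, which shared their highest Lsd1 peak at percentile 42.3. In the Hoxb cluster they were Hoxb3 and Hoxb6, with Lsd1 percentiles of 6.33 and 0.185. Hoxc10 and Hoxc5 shared a peak at percentile 16.3, and Hoxc9, which sets thoracic motor neuron identity, had one at 15.3. Hoxd3 and Hoxd4 begin at the same place and shared a peak at 10.1, Hoxd11 had one at 32.9 and Hoxd13, a gene of the digits, one at 18.8. None of the 11 was above the middle of the Lsd1 list. The gene models of Hoxa3, Hoxc5 and Hoxd3 are long and span neighbouring genes, so that their counts repeat those of their neighbours.

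The 19 genes with a Gfi1 peak in tumor 39 alone came from every cluster, and values are given for 18 of them. In the Hoxa cluster, percentiles of the highest peak were 53.9 at Hoxa2, which patterns the hindbrain and the pharyngeal arches, 60.0 at Hoxa5 and Hoxa6 for a peak that they share, 69.3 at Hoxa10 and 67.2 at Hoxa11. The last peak lay over the 5′ end of Hoxa10 and only reached the 1 kb beside Hoxa11, whose own start had a peak at 66.7. In the Hoxb cluster the percentiles were 60.9 at Hoxb2, 20.4 at Hoxb5, 66.6 at Hoxb7 and Hoxb8 for a shared peak, and 14.7 at Hoxb9. The Hoxb5 and Hoxb9 peaks were the lowest of these. In the Hoxc cluster they were 56.6 at Hoxc6, 59.8 at Hoxc8, 45.4 at Hoxc11, 55.9 at Hoxc12 and 56.8 at Hoxc13, a gene of hair and nails. In the Hoxd cluster they were 61.2 at Hoxd8, 64.1 at Hoxd10 and 27.9 at Hoxd12. For all 19 the lists of Gfi1 in tumor 41 and of Lsd1 in both tumors held no peak.

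The genes without a peak were Hoxb1, which marks a hindbrain segment, Hoxb4, Hoxb13 at the tail end of its cluster, and Hoxc4. Hoxb13 lies apart from the other Hoxb genes, inside the longest stretch of any cluster with no Gfi1 peak of tumor 39, which was 78095 bp. Hoxc4 lies in the longest such stretch of its cluster, 22238 bp. The longest stretches in the Hoxd and Hoxa clusters were 15845 bp and 12211 bp. The start of Hoxd4 in RefSeq lies in the former, while that of its GENCODE gene model lies outside it.

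**Figure D2:**
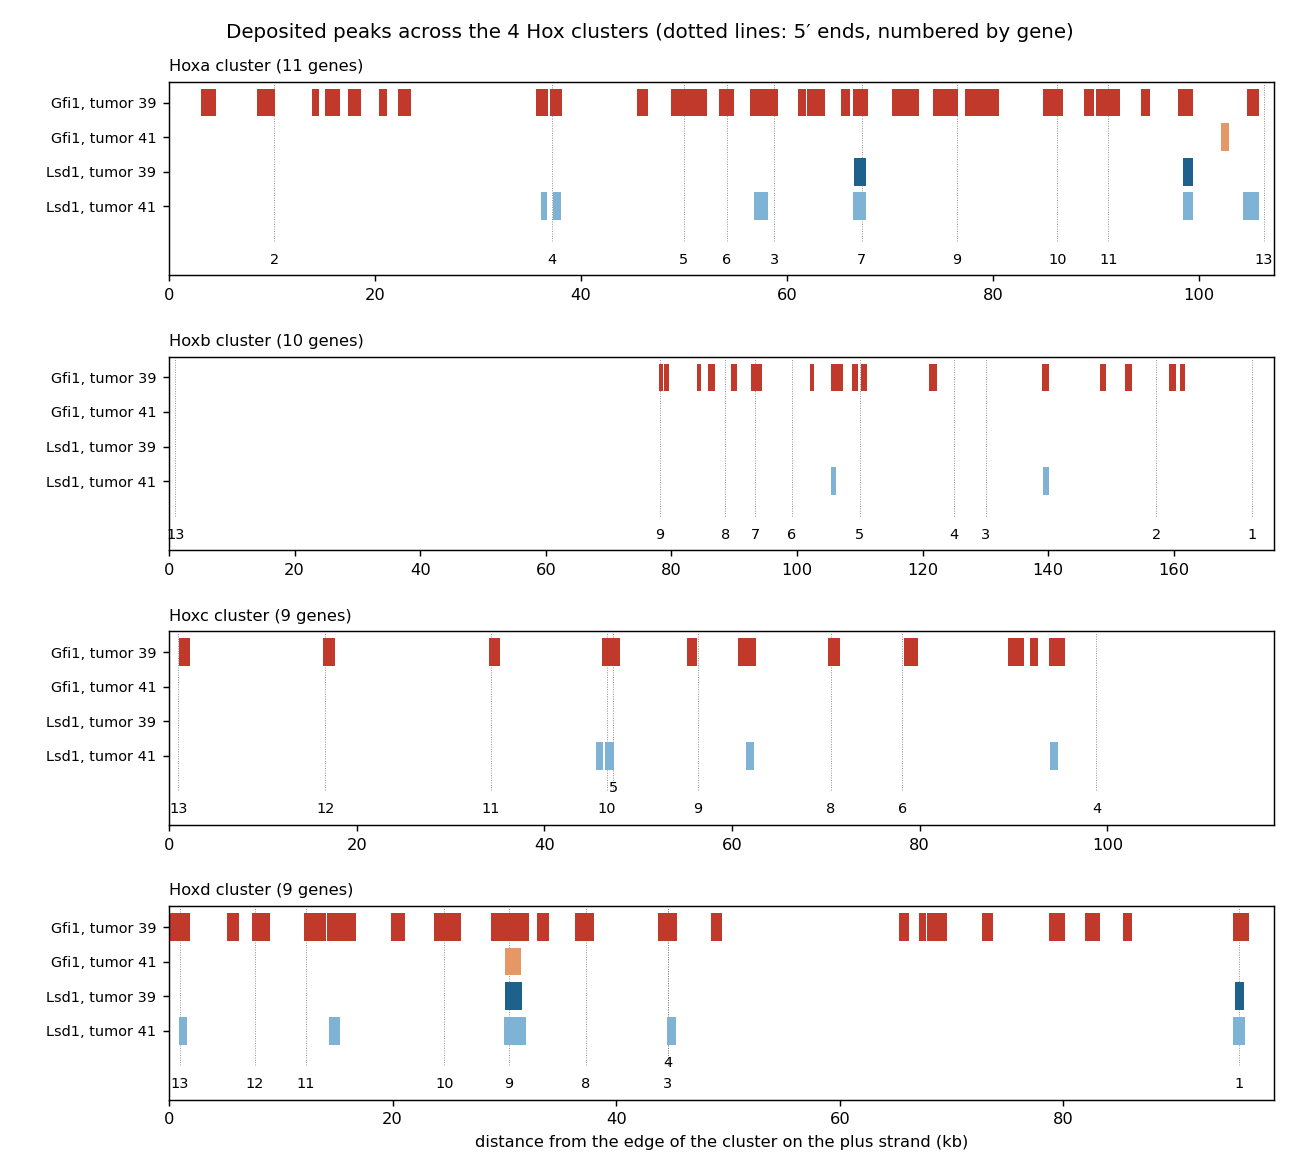
Deposited peaks of the 4 libraries (rows) drawn to scale along each Hox cluster, with the distance from the cluster's edge in kb on the horizontal axis. Dotted lines mark the 5′ ends of 38 of the Hox genes and carry their position numbers. The Gfi1 row of tumor 39 holds 74 bars, and the rows below it 2, 4 and 17.

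Counted by cluster, the Gfi1 peaks of tumor 39 were densest in Hoxa and Hoxd. Each cluster was taken from its outermost Hox genes with 1 kb on either side, which gave chr6:52154590-52261880 for Hoxa, chr11:96193316-96369256 for Hoxb, chr15:102920103-103037852 for Hoxc and chr2:74667310-74766142 for Hoxd. In tumor 39, Gfi1 had 26 peaks over 38.6% of Hoxa, 21 over 31.2% of Hoxd, 11 over 13.4% of Hoxc and 16 over 9.14% of Hoxb. All 11 Hoxa genes, all 9 Hoxd genes, 8 of 9 Hoxc genes and 7 of 10 Hoxb genes had a peak. Lsd1 in tumor 41 had 6 peaks over 6.11% of Hoxa, 5 over 5.68% of Hoxd, 4 over 2.82% of Hoxc and 2 over 0.912% of Hoxb. By cover this is the order of the clusters for Gfi1 in tumor 39. By number of peaks it is not, since Gfi1 had more peaks in Hoxb than in Hoxc. The length of Hoxb also includes the stretch of 78095 bp with no Gfi1 peak of tumor 39, which lowers its cover. The 4 Lsd1 peaks of tumor 39 were 2 in Hoxa and 2 in Hoxd. The Gfi1 peaks of tumor 41 were 1 in Hoxa and 1 in Hoxd.

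Over a total of 499815 bp, the clusters were covered to 20.8% by Gfi1 peaks in tumor 39, and the genome to 2.53%. In tumor 41 Gfi1 covered 0.446% of the clusters and 1.83% of the genome. Lsd1 covered 0.895% in tumor 39 and 3.42% in tumor 41, with 2.60% of the genome in each. The mean over the tumors was 10.6% ± 14.4 (SD, n = 2) for Gfi1 and 2.16% ± 1.78 (SD, n = 2) for Lsd1. Within tumor 39 the cover by Gfi1 was the higher, and within tumor 41 that by Lsd1. Beyond the clusters the cover of Gfi1 in tumor 39 was lower. Within 100 kb on either side of each cluster, 15 Gfi1 peaks of tumor 39 covered 2.44%, close to the share of the genome, and the other lists had 3, 7 and 7 peaks there.

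Peaks were spread over the position numbers. A Gfi1 peak of tumor 39 was present at 9 of 12 genes numbered 1 to 4, at 11 of 11 numbered 5 to 8, and at 15 of 16 numbered 9 to 13, with median percentiles of 60.9, 60.0 and 61.2. Lsd1 in tumor 41 had a peak at 6, 3 and 7 of these genes. Within the groups of genes that share a number, all 3 genes numbered 3 had an Lsd1 peak in tumor 41, and 3 of the 4 numbered 9 did. No gene numbered 2, 8 or 12 had one. Hoxb3, Hoxa9 and Hoxc9 were counted through Lsd1 peaks farther than 1000 bp from any annotated start of the gene.

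At 5′ ends the picture was the same. Within 1000 bp of an annotated transcription start site (TSS) of the gene, Gfi1 had a peak at 35 Hox genes in tumor 39 and at 1, Hoxd9, in tumor 41, against 65% and 54.3% of all genes. Lsd1 had one at 3 in tumor 39 and at 13 in tumor 41, against 58.5% and 61.7%. Of the 74 Gfi1 peaks of tumor 39 in the clusters, 60 lay within 1000 bp of a TSS of any annotated gene, small RNAs included, 4 more in exons, 5 in introns and 5 between genes. The same shares were not computed for the whole list, so that the 60 cannot be read as a preference for TSSs. The median width of the 74 was 1212.5 bp, against 1443 bp in the whole list. The widest, of 3560 bp, ran from the 5′ part of Hoxa5 into the 3′ end of Hoxa6. These peaks held a median of 4.97 CpGs per 100 bp, against 2.64 in the whole list.

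The Hox peaks of Gfi1 in tumor 39 mostly stood alone. Of the 74, 58 (78.4%) overlapped no peak of any other library, and of all 36836 peaks in that list 20.5% did so. Lsd1 peaks of tumor 41 overlapped 16 of the 74, Lsd1 peaks of tumor 39 overlapped 4, and the Gfi1 peak of tumor 41 at Hoxd9 overlapped 1. In the other direction, all 17 Lsd1 peaks of tumor 41 and all 4 of tumor 39 in the clusters lay on a Gfi1 peak of tumor 39, against 76.4% and 77.0% of those whole lists. The 16 Gfi1 peaks with an Lsd1 peak had a median percentile of 59.6 and a median width of 1598.5 bp, and the 58 without had 43.0 and 1164 bp. The medians differed, but the ranges overlapped, since peaks without Lsd1 reached percentile 71.8 and included the widest, and those with Lsd1 went down to 44.4.

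Gfi1 peaks of like rank elsewhere in the genome were shared between the libraries more often. Among Gfi1 peaks of tumor 39 from the 60th to the 80th percentile, 83.5% of the 7351 outside the clusters overlapped a Gfi1 peak of tumor 41, and 0 of the 16 inside did. From the 40th to the 60th percentile the shares were 50.1% outside and 0 of 30 inside. Lsd1 peaks of tumor 41 overlapped 97.7% and 77.7% outside in these bands, and 6 of 16 and 9 of 30 inside. Peaks that stood alone made up 1.41% outside and 10 of 16 inside in the upper of these bands, and 14.3% outside and 21 of 30 inside in the lower.

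**Figure D3:**
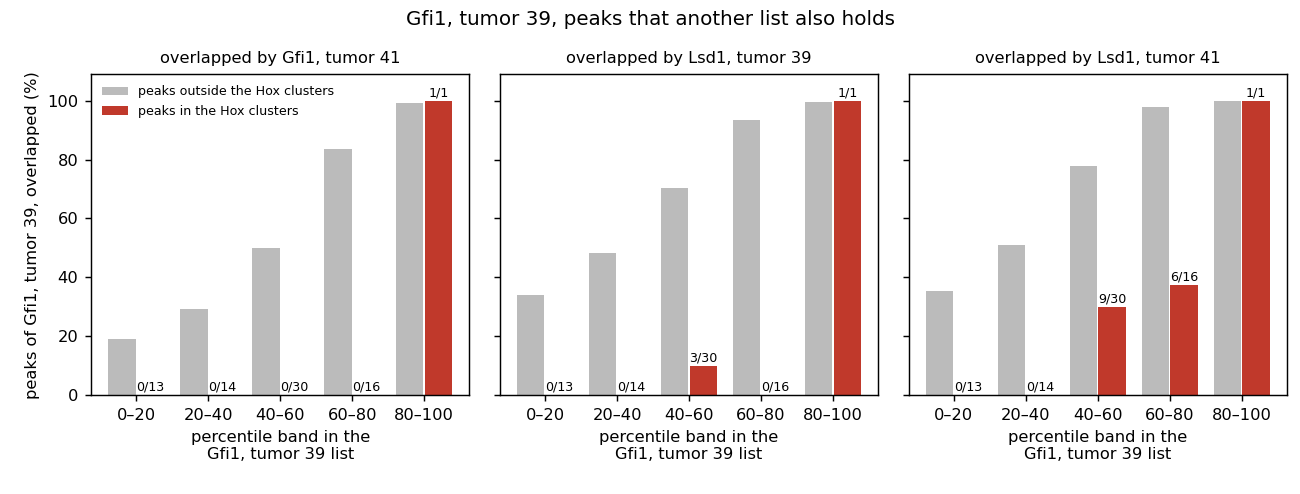
Percent of Gfi1 peaks of tumor 39 that overlapped a peak of each other library by at least 1 bp, by percentile band of their score. Grey bars are peaks outside the Hox clusters and red bars peaks inside, with the count overlapped of the count in the band written above. Below the 80th percentile no Hox peak of Gfi1 in tumor 39 met a Gfi1 peak of tumor 41, and 0 to 9 per band met an Lsd1 peak.

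Hox promoters held somewhat more CpGs than others. Within 500 bp on either side of the 5′ end, the 39 genes had a median of 52 CpGs, with a range from 10 at Hoxb2 to 126 at Hoxa13, and all protein-coding genes had a median of 41. The 35 genes with a Gfi1 peak in tumor 39 had a median of 56, and the 4 without a peak ranged from 17 to 39. The groups overlapped, since Hoxb2 with 10 and Hoxb3 with 15 had a peak. The letters AAATCA, which hold the AATC core of the Gfi1 motif, were searched on both strands of 24 RefSeq promoters (250 bases before to 50 after the start) that matched 22 of the Hox genes. They were found in 3 (12.5%), at Hoxa6, Hoxa10 and Hoxd3, and in 14.0% of 32851 promoters of all genes. The core AATC alone was found in 75% and 73.1%. In the 1414 bp shared by the peaks at Hoxd9, AAATCA occurred 3 times, and in the Hoxd9 promoter searched it did not occur. The count was not compared with other sequence of that length, so that it cannot be read as an excess.

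The clusters also hold microRNAs, which are of interest because several of them act on Hox messages. The mature sequences, from RefSeq, of those that share a seed with another are shown by seed (bases 2 to 8, in capitals).
miR-196a-5p: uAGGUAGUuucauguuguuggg
miR-196b-5p: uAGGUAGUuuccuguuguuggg
miR-10a-5p: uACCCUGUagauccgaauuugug
miR-10b-5p: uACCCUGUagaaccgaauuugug
The hairpin of Mir196b, in the gene model of Hoxa9 near the end that faces Hoxa10, lay inside a Gfi1 peak of tumor 39 at percentile 57.2. Mir196a-1, Mir196a-2, Mir10a and Mir10b had no peak within 1 kb in any library, although Mir196a-1 and Mir196a-2 carry the seed of Mir196b. Mir615, in the Hoxc cluster, had a Gfi1 peak of tumor 39 at 62.6 and an Lsd1 peak of tumor 41 at 6.16. Of all 43 noncoding genes in the clusters, 27 (62.8%) had a Gfi1 peak in tumor 39 and 3 (6.98%) in tumor 41, against 16.6% and 12.6% of all 33475 genes that do not code for protein, pseudogenes included. An Lsd1 peak was present at 3 (6.98%) in tumor 39 and 9 (20.9%) in tumor 41, against 14.7% and 15.3%. Several of these noncoding genes share a single peak that was also counted at a Hox gene, so that the counts partly repeat those above. Peaks in all 4 libraries were found at Gm14396 and Gm28793, those beside Hoxd9. Hotair, a long noncoding RNA of the Hoxc cluster, had no peak.

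Genes around and related to the Hox genes were read in the same way. Libraries are given in the order Gfi1 of tumors 39 and 41, then Lsd1 of tumors 39 and 41. Of the 24 protein-coding genes nearest to the clusters, 3 on each side, 22, 19, 20 and 20 had a peak. These are 91.7%, 79.2%, 83.3% and 83.3%, against 68.1%, 58.1%, 62% and 64.9% of all genes. Peaks in all 4 were found at 19 of the 24, a pattern that 56.6% of all genes had. Cbx3 beside Hoxa was among them, at percentiles of 98.6, 99.5, 99.4 and 99.2. Most of these neighbours thus had peaks in both tumors. Beside Hoxb, however, Ttll6 and Calcoco2 had no peak and Skap1 had a Gfi1 peak of tumor 39 alone, at percentile 19.2. Evx1 and Evx2, homeobox genes at the ends of Hoxa and Hoxd, had no Gfi1 peak in tumor 41, like most Hox genes. Evx1 had a Gfi1 peak of tumor 39 alone, at percentile 8.84. Evx2 had peaks at 69.9 for Gfi1 in tumor 39 and at 32.9 and 41.04 for Lsd1 in tumors 39 and 41. Lsd1 peaks in both tumors were found at only 4 of the 39 Hox genes.

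**Figure D4:**
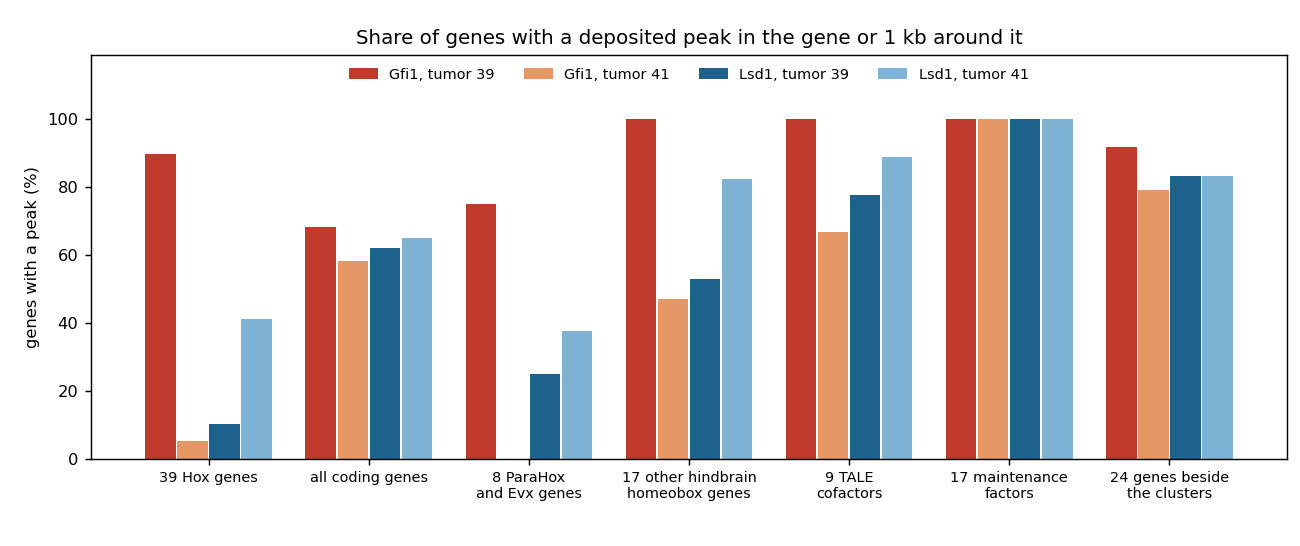
Percent of genes with a peak in the gene or 1 kb around it, in each of the 4 libraries, for the Hox genes, all protein-coding genes and 5 further lists. Bars start at 0 and carry no error, since each is a single library. Hox genes have a high first bar and low bars after it, and the maintenance factors stand at 100% in every library.

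The ParaHox genes, the sister cluster of Hox, and the Evx genes are few. Of 8 such genes, 6 (75%) had a Gfi1 peak in tumor 39, near the 68.1% of all protein-coding genes, and 0 had one in tumor 41, against 58.1%. For Lsd1, 2 (25%) in tumor 39 and 3 (37.5%) in tumor 41 had a peak, against 62% and 64.9%. Cdx2, which acts in the gut and drives posterior Hox genes, had a Gfi1 peak in tumor 39 alone, at percentile 66.6. Gsx1, of neural progenitors, had peaks at 58.7 for Gfi1 in tumor 39 and at 24.2 and 64.8 for Lsd1. Cdx4 and Pdx1 had no peak.

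Homeobox genes outside the clusters that pattern the hindbrain and cerebellum had a peak more often than the Hox genes in every library. All 17 (100%) had a Gfi1 peak in tumor 39, against 68.1% of all protein-coding genes. In tumor 41, 8 (47.1%) had one, against 58.1%. For Lsd1 it was 9 (52.9%) in tumor 39 and 14 (82.4%) in tumor 41, against 62% and 64.9%. All 4 libraries had a peak at 7, a pattern that 56.6% of all genes had. Lmx1b, of the isthmus and hindbrain, stood at 99.9, 89.9, 96.2 and 99.2 in the order used above. En1 and En2, of the midbrain and cerebellum, had a Gfi1 peak in tumor 39 at 63.4 and 66.1 and an Lsd1 peak in tumor 41 at 35.2 and 27.6, and no other. Otx2, of the forebrain and midbrain, had a Gfi1 peak of tumor 39 alone, at 37.0.

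Proteins that bind DNA with Hox factors are the TALE homeodomain cofactors. Of 9 genes, 9 (100%) and 6 (66.7%) had a Gfi1 peak in tumors 39 and 41, against 68.1% and 58.1% of all protein-coding genes. An Lsd1 peak was present at 7 (77.8%) and 8 (88.9%), against 62% and 64.9%. Pbx2 had peaks at 94.3, 82.3, 96.0 and 97.1. Meis1 had a single peak, of Gfi1 in tumor 39 at 2.61, near the foot of the list.

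Factors that keep Hox genes on or off had peaks throughout. All 17 genes of this list had a peak in each of the 4 libraries, with median percentiles in tumors 39 and 41 of 95.3 and 83.5 for Gfi1, and of 84.2 and 93.8 for its cofactor Lsd1. Among them were Suz12 (99.9, 93.2, 87.3 and 93.7) and Ezh2 (97.2, 84.8, 84.4 and 94.3) of Polycomb complex PRC2, and Kmt2a (98.6, 92.9, 97.9 and 99.2), which keeps Hox genes active. Others stood lower, such as Bmi1 (72.6, 26.6, 54.8 and 60.8) and Phc1 (73.2, 55.3, 64.8 and 71.0). Of all protein-coding genes, 56.6% had a peak in every library. Over all genes with a peak, the median percentile in the Gfi1 lists was 82.5 (tumor 39) and 77.5 (tumor 41). In the Lsd1 lists it was 79.3 (tumor 39) and 81.2 (tumor 41). All medians of the regulators were higher, but less so for Gfi1 in tumor 41 and Lsd1 in tumor 39. Peaks were therefore seen at the genes of Hox regulators in both tumors. At the Hox genes themselves they lay mostly in the Gfi1 list of tumor 39. Of the 5 genes carried by the retroviruses or marking the sorted cells, 3 had a peak in all 4 libraries, namely Gfi1, Myc and Sox2. This pattern was found at 56.6% of all protein-coding genes. Prom1 and Nes had a peak in all libraries but that of Gfi1 in tumor 41. In that library the genes Gfi1, Myc and Sox2 stood at percentiles of 20.7, 47.2 and 8.24.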

How the data were processed

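Gfi1 and Lsd1 chromatin was sequenced in 2 MG tumors. The authors aligned reads to mm10 with BWA 0.6.2, removed duplicates, and called peaks with MACS in each library against the input chromatin of the respective ChIPs. Which input served which library is not given in the sources used here. The deposited lists give position and a score of 50 or more, whose definition is not stated; scores were turned into percentiles within a list, ties at their mean rank. Without read counts, no precision per peak can be given. Genes came from GENCODE M21, while the study used another release. A gene had a peak where at least 1 bp of it lay in the gene or 1000 bp around it. A high-confidence peak was in the best-scoring 20% of tumor 39, and peaks of the best-scoring 20% of tumor 41 covered 50% or more of it. The score stood in for the enrichment used in the study, which is not in the lists. The members and lists were chosen with earlier results of these data known. Results of 1 Hox gene and 1 cofactor gene are not reported here by name. The genes could be named, with values in every library for those with peaks of 1 factor or 1 tumor or in all 4 libraries. Alternatives varied window, score, percentile, overlap and libraries. Steps used Python 3.11.15, numpy 2.4.6, pandas 2.3.3 and matplotlib 3.10.9 and were tested on simulated data.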

Additional observations from a re-analysis of the deposited data

Results flagged for a closer look

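The number of Hox genes with a peak moved in opposite directions for the 2 factors between the tumors. From tumor 39 to tumor 41 the change was -33 genes for Gfi1 (35 to 2 of 39) and +12 for Lsd1 (4 to 16). Each value rests on a single library, and the difference between the factors was not tested. The Gfi1 list of tumor 39 is also the longest of the 4. With each list reduced to its highest 25078 peaks, the length of the shortest list, a comparison chosen after seeing the data, Gfi1 had 32 and 2 genes and Lsd1 had 3 and 8, so that the order of the tumors was the same for each factor.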

How the results depend on the processing

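No paired analysis was possible because no result comes from a test. Of the counts of Hox genes, that with a Gfi1 peak in both tumors moved from 2 to 1 with the gene body alone, within 1000 bp of a TSS only and in the upper 50% of the score, and to 0 in the upper 20%. That with an Lsd1 peak in both tumors went from 4 to 0 in the upper 50% and to 0 in the upper 20%. That with a peak in all 4 libraries went from 1 to 3 with a window of 5000 bp, and to 0 in the upper 50% and in the upper 20%. That with no peak went from 4 to 2 with a window of 5000 bp, to 9 in the upper 50%, to 38 in the upper 20%, and to 7 with an equal number of peaks per list, an alternative chosen after seeing the data. The cover of the clusters by Lsd1 peaks fell from 2.16% to 0.198% in the upper 50%. A stricter score leaves fewer peaks by construction.

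Leaving out each library in turn gave ranges of 2 to 35 genes for Gfi1 in both tumors, 4 to 16 for Lsd1 in both tumors, 1 to 4 for all libraries, 4 to 23 for none, 0 to 1 and 0 to 0 for high-confidence Gfi1 and Lsd1 peaks, 28.8 to 60.9 and 25.9 to 29.1 for the median percentile of Gfi1 and Lsd1, and 0.446% to 20.8% and 0.895% to 3.42% for the cover. Without tumor 41, Gfi1 gave 35 genes, 1 high-confidence gene and 20.8% cover. Without tumor 39, Gfi1 gave 23 genes with no peak and 0.446% cover. Without Lsd1 in tumor 39, 16 genes had an Lsd1 peak. The other 48 values stayed within 1.5 times the count or 1 SD between the tumors, which is wide for Gfi1. For some of them this was fixed in advance. With 2 tumors, the median percentile or cover of either tumor alone always lies within 1 SD of their mean. A count of 0 high-confidence genes also cannot fall under a stricter rule. Such values are no measure of stability. Neither the number of tumors nor the lists allow an error for a single gene.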

Other observations

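The genome was also read in 27268 bins of 100 kb for Gfi1 peaks of tumor 39 that overlapped no peak of any other library. Such peaks were found in 5031 bins, with a median of 1. In 19 bins there were at least 7, and 6 of these 19 hold Hox genes, as a description chosen after the data were seen. The bin chr6:52200001-52300000, with Hoxa3 and Hoxa5 to Hoxa13, held 14, the second most in the genome, and chr2:74700001-74800000, with Hoxd1 to Hoxd9, held 10. The most, 27, lay in chr6:114500001-114600000, which holds no protein-coding gene, and the next bin, with Atg7, held 9. Cux2, a homeobox gene, lay in bins with 8 and 7.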
